A study of Jaculus jaculus and Mus musculus with 24 samples.

Results

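Muscle from inside the mouse hindfoot was compared with forelimb muscle at postnatal day 3 (P3), with 3 libraries on each side. A gene entered the comparison when at least 10 reads covered it in at least 3 of these 6 libraries. That left 13636 of the 17641 features in the count files, and of the other 4005 features 1522 had 0 reads in all 6 libraries. The study sequenced total RNA of hindfoot and forelimb muscle of the lesser Egyptian jerboa, a hopping rodent whose foot muscle is lost after birth, and of the laboratory mouse, at birth (P0) and at P3. It gave 24 libraries in 8 groups of 3, and its title names the loss of muscle inside the jerboa hindfoot as the subject. The 4 mouse groups used here are foot and forelimb at P3, and foot and forelimb at P0. All are labelled as normally treated, with no strain or genotype given. Foot muscle was taken out of sections of the foot, and the forelimb sample was the dissected flexor digitorum superficialis (FDS), the muscle that bends the digits, so the way of sampling cannot be told apart from the limb. The sources used here do not state whether libraries of a group came from different animals. The p-values therefore measure a spread between libraries of a group, estimated over all 24 libraries of both species, which may be technical.

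Skeletal muscle of a newborn mouse is still maturing. Fibres form by fusion of myoblasts and first build their contractile filaments from embryonic and perinatal isoforms of myosin, troponin and actin, which are replaced after birth by fast or slow adult isoforms while glycolytic and oxidative enzymes increase. Position in the limb is marked in connective tissue and muscle by T-box and Hox transcription factors, with Tbx5 used in the forelimb, Tbx4 and Pitx1 in the hindlimb, and the last Hox genes of the A and D clusters in the hand and foot.

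Totals ran from 34.1 M to 50.4 M reads in the foot libraries and from 46.7 M to 54.7 M in the forelimb libraries. Levels are given as CPM, counts scaled to a common library total, with library sizes scaled by the TMM method, whose factors were 1.11 to 1.14 in foot and 1.04 to 1.06 in forelimb. A gene with 0 reads could have had up to 3, or 0.0523 to 0.0791 CPM in 1 library (counting error only). Log2 CPM values correlated across genes at r of 0.995 to 0.996 within each limb and 0.960 to 0.963 between limbs, where genes are not independent replicates. The first principal component held 84.5% of the variance and separated the limbs. Foot library 1 stood apart from the other foot libraries on the second component, which held 4.76%, and forelimb library 3 stood apart from the other forelimb libraries on the third. Muscle transcripts were among the most abundant in both tissues, with the skeletal actin Acta1 at 11200 ± 592 CPM in foot against 21700 ± 1700 CPM in forelimb (mean ± SD, n = 3). Keratinocyte genes were low in both, at summed levels of 13 to 14 CPM in foot against 12.6 to 15.3 CPM in forelimb over the 7 genes tested.

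A majority of the genes tested differed between the limbs, most of them slightly. With edgeR's quasi-likelihood test and an adjusted p under 0.05, 7586 of the 13636 genes were called (55.6%), 3962 higher in foot (29.1%) and 3624 lower (26.6%). Most of these differences were small, with a median absolute log2 fold change of 0.50 among the called genes, and the median over all genes tested was 0.03. At least 2-fold differences were found for 544 called genes that were higher and 832 that were lower, at least 4-fold ones for 110 and 183, and at least 16-fold ones for 18 and 24. The 3 foot values lay wholly above the 3 forelimb values for 5109 genes and wholly below for 4545, which is 70.8% of the genes beside the 55.6% that were called. The share called rose with level, from 48.4% in the lowest of 4 equal bins of mean CPM to 62.5% in the highest. With so large a share called, each group of genes is read against 29.1% higher and 26.6% lower. A total of 76 genes passed the read minimum only through the foot libraries and 95 only through the forelimb libraries, and 74 and 84 of these were called in that direction, as their selection favours.

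The genes that stood furthest higher in foot included Hox genes, genes of retinoic acid handling and a myosin binding protein. Hoxd13, which patterns the digits, was at 69.5, 60 and 67.3 CPM in the 3 foot libraries and at 5.06, 4.76 and 4.57 CPM in the 3 forelimb libraries (log2 fold change 3.77 ± 0.12 SE, edgeR adjusted p = 4.32e-17). Mybph, the myosin binding protein H gene of developing muscle, was at 253, 313 and 276 CPM in foot and at 53.4, 46.7 and 39 CPM in forelimb (2.60 ± 0.13). The groups did not overlap for either gene, which was a condition of their selection. Sct, which encodes the hormone secretin, was at 14.8 ± 1.30 CPM in foot against 1.11 ± 0.0782 CPM in forelimb (3.74 ± 0.16), and Snap91, an adaptor of clathrin-coated vesicles, at 38.4 ± 2.72 and 6.01 ± 0.201 CPM (2.67 ± 0.13). Chil1, a secreted chitinase-like protein, was higher by 2.47 ± 0.21, and the receptor tyrosine kinase gene Ros1 by 3.40 ± 0.37.

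Several genes known from fast fibres were at the other end. Aqp4, the water channel of the fast fibre membrane, was at 1.06, 0.75 and 0.997 CPM in foot and at 170, 164 and 155 CPM in forelimb, a fall by 7.47 on the log2 scale (SE 0.20). Mybpc2, the fast isoform of myosin binding protein C, was at 15.2, 12 and 12.4 CPM in foot and at 438, 406 and 471 CPM in forelimb (-5.06 ± 0.17). Pvalb, parvalbumin, the calcium buffer of fast fibres, was at 18.2, 13.8 and 16.1 CPM in foot and at 454, 432 and 489 CPM in forelimb (-4.84 ± 0.24). Each of the 3 genes was lower in every foot library than in any forelimb library, which their selection also required. Tuba8, an alpha tubulin, was lower by a log2 fold change of -5.92 ± 0.24, and Myh13, the superfast myosin known from eye muscle, by -4.14 ± 0.47. Plin4, a lipid droplet coat protein, was at -3.83 ± 0.17, Nmrk2, a nicotinamide riboside kinase of muscle, at -3.99 ± 0.24, Hmcn2, a hemicentin of basement membranes, at -3.94 ± 0.15, and Eef1a2, the translation elongation factor isoform of mature muscle, at -3.32 ± 0.23.

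**Figure D1:**
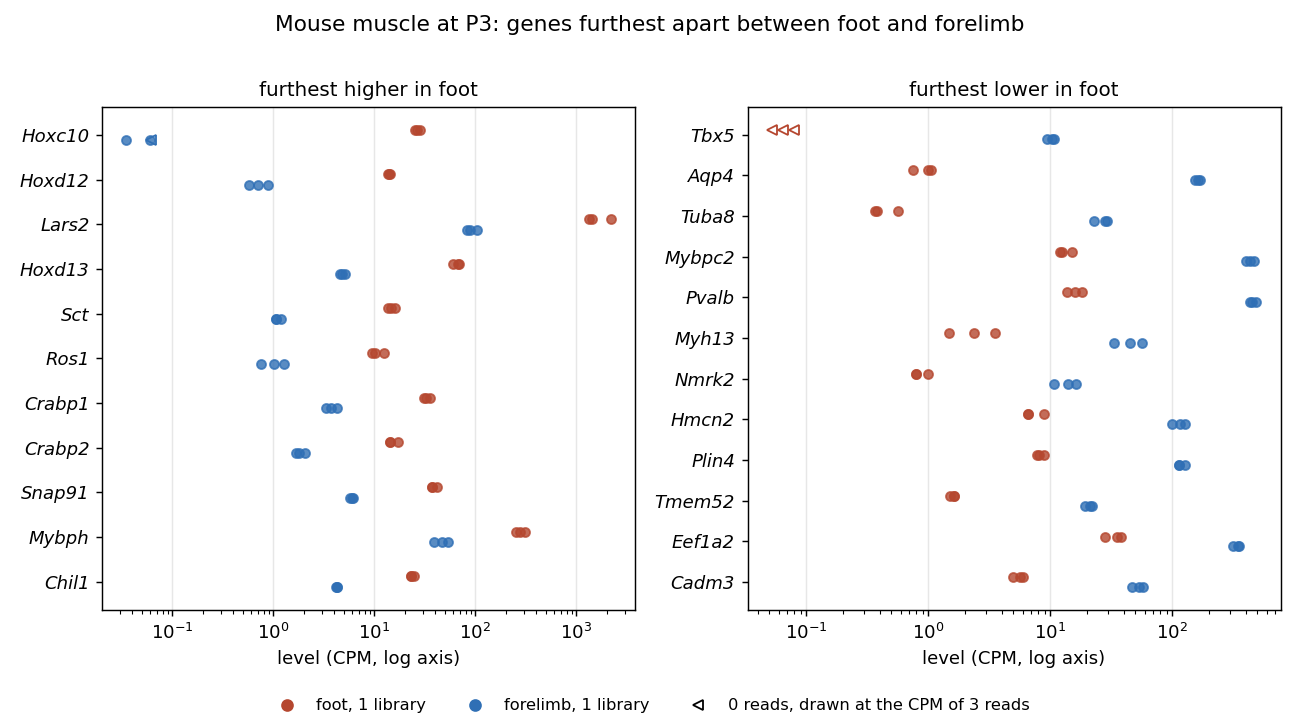
Levels in CPM on a log axis of the genes furthest higher (left) and furthest lower (right) in mouse foot muscle at P3, 1 point per library, with libraries at 0 reads drawn as open triangles at the level of 3 reads. Only genes whose 3 foot and 3 forelimb values did not overlap were eligible, so the gap between the limbs follows from the selection. Hoxd13, for example, was at 60 to 69.5 CPM in foot against 4.57 to 5.06 CPM in forelimb.

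A single gene stood high and unevenly. Lars2, which encodes the mitochondrial leucyl-tRNA synthetase, was at 1420, 2200 and 1350 CPM in foot and at 82.2, 87.5 and 103 CPM in forelimb (4.19 ± 0.60). At P0 it was at 3380 ± 699 CPM in foot against 3820 ± 5170 CPM in forelimb, where the SD exceeded the mean. Its position among the genes furthest apart at P3 therefore rests on a gene whose libraries varied widely at the other age.

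Several genes of limb identity differed between the tissues. Tbx5 (chromosome 5, 119832668 to 119885219, GRCm38) had 0 reads in the 3 foot libraries and 10.7, 10.3 and 9.40 CPM in forelimb, which is 1579 reads in all and a level at least 475-fold lower in foot, with 3 reads over the group taken as the floor. Tbx5 passed the read minimum only through the forelimb libraries, which fixes its direction. Tbx4 (chromosome 11, 85886422 to 85916097) was at 51.6, 43.5 and 44.7 CPM in foot and at 14.4, 11.6 and 12.2 CPM in forelimb (1.87 ± 0.11), so it was detected in every forelimb library at a lower level. Pitx1, which acts upstream of Tbx4 in the hindlimb, was low in both, at 1.27 ± 0.402 CPM in foot against 0.161 ± 0.0512 CPM in forelimb (2.99 ± 0.32). Shox2, a homeobox gene of the proximal limb, was at 0.178 ± 0.0423 CPM in foot against 6.64 ± 0.481 CPM in forelimb (-5.20 ± 0.27). Of the 21 limb patterning factors tested, 7 were higher, 11 lower and 3 not called, with a median of -0.58. Msx1 (1.41 ± 0.15), Tbx2 (0.86 ± 0.10) and Twist1 (0.75 ± 0.12), all known from distal limb mesenchyme, were among the higher, and the mesenchymal factor Prrx1 (-0.99 ± 0.08) among the lower.

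The Hox clusters moved by cluster and by position. Of the 11 posterior genes tested (groups 9 to 13 of the A, C and D clusters), 7 were higher, 2 lower and 2 not called, with a median of 1.54. Of the 21 anterior and middle genes, with which Hoxb9 was counted, 5 were higher, 12 lower and 4 not called, with a median of -0.79. All 7 HoxC genes tested were higher in foot, but 5 of them (Hoxc6, Hoxc8, Hoxc9, Hoxc10 and Hoxc11) passed the read minimum only through the foot libraries, which fixes their direction. These 5 genes are also part of the counts of higher genes above. Hoxc10 (chromosome 15, 102966796 to 102971893) was at 26.4, 25.4 and 28.3 CPM in foot and at 0.0598, 0 and 0.035 CPM in forelimb. Its neighbour Hoxc11 (chromosome 15, 102954427 to 102957708) had 1383 foot reads and 0 forelimb reads, at least 511-fold higher in foot, and Hoxc9 had 545 and 0, at least 201-fold higher. Hoxc4 (3.13 ± 0.29), Hoxc5 (2.70 ± 0.34) and Hoxc6 (3.92 ± 0.41) were higher from low levels of 1.11 to 1.76 CPM in foot, and Hoxc8 had 78 reads in foot and 1 in forelimb. The HoxD cluster was split, since Hoxd13, Hoxd12 (chromosome 2, 74675013 to 74677705, 4.27 ± 0.20), Hoxd11 (1.31 ± 0.16) and Hoxd10 (1.54 ± 0.14) were higher while Hoxd9 (-0.99 ± 0.14), Hoxd8 (-1.40 ± 0.13) and Hoxd3 (-2.44 ± 0.58) were lower. Hoxd13 lies at 74668310 to 74671599 on chromosome 2. In the HoxA cluster Hoxa4 was lower by -2.44 ± 0.16 and Hoxa10 by -0.53 ± 0.12, and Hoxa11 was at 17.7 CPM in foot against 18 CPM in forelimb (-0.03 ± 0.13, edgeR adjusted p = 0.88).

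Fast contractile isoforms were lower in foot, and most embryonic and perinatal isoforms were higher. Of the 17 fast fibre genes, 16 were lower, 0 higher and 1 not called, with a median of -1.03 and a summed level of 23100 to 23600 CPM in foot against 48000 to 51600 CPM in forelimb. In bulk tissue such a difference cannot be told apart between fewer fibres of a type and less of its RNA per fibre. Among the 5 embryonic and perinatal isoforms, 4 were higher (Myl4, Actc1, Tnnt2 and Myh3) and Myh8 was lower. Their summed level was 18800 to 20000 CPM in foot against 17300 to 19000 CPM in forelimb, so the summed ranges overlapped. Myl4, the embryonic light chain, was at 899, 872 and 848 CPM in foot and at 205, 237 and 225 CPM in forelimb (1.97 ± 0.09). Actc1, cardiac actin, which fetal skeletal muscle also makes, was at 3090, 3200 and 3070 CPM in foot and at 1130, 1120 and 1350 CPM in forelimb (1.38 ± 0.09). Tnnt2, the cardiac and embryonic troponin T, was higher by 1.36 ± 0.07. The groups did not overlap for any of these 5 genes.

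Slow fibre genes went both ways, with 4 higher, 8 lower and 3 not called of 15 and a median of -0.35, which was -0.15 without forelimb library 3. The 3 slow troponin subunits were higher: Tnnc1, the calcium-binding subunit, by 1.23 ± 0.07, Tnni1, the inhibitory subunit, by 1.12 ± 0.09, and Tnnt1, the tropomyosin-binding subunit, by 0.56 ± 0.10. Their fast partners Tnnc2 (-1.03 ± 0.11), Tnni2 (-1.32 ± 0.12) and Tnnt3 (-1.10 ± 0.11) were all lower. Most of the other slow genes were lower like the fast ones, among them the slow light chains Myl2 (-1.20 ± 0.28) and Myl3 (-0.80 ± 0.14), the slow myosin Myh7 (-0.45 ± 0.11) and Mybpc1 (-0.59 ± 0.11), the slow myosin binding protein C. Myh7b, an ancient slow-type myosin, was higher at 81.2 ± 14.3 CPM in foot against 46.8 ± 7.14 CPM in forelimb (0.80 ± 0.16).

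Ratios between paralogues within a library do not depend on library size. Over 28 pairs of genes the log2 ratio of reads of the developmental, broadly expressed or slow form to the adult, muscle or fast form lay higher in every foot library than in any forelimb library for 26 pairs. It was lower for 1 (Myl2 to Mylpf, a difference of -0.39) and overlapped for 1 (Myl3 to Myl1, 0.08). Beside this, 70.8% of all single genes tested did not overlap between the limbs, in either direction. The second gene of every pair was itself called lower in foot, and Tnnt3 and Myl1 each served in more than 1 pair. The ratios are therefore not separate evidence from those calls. The median difference was 2.20 over 6 developmental pairs, 1.26 over 10 pairs of broad and muscle isoforms and 0.76 over 12 pairs of slow and fast isoforms, in log2 units. The 6 developmental pairs include Myh3 to Myh8 (2.06), which sets the embryonic form against the perinatal form, not against an adult one. The ratio of Myl4 to Myl1 was -1.28, -1.35 and -1.35 in foot and -4.29, -4.07 and -4.18 in forelimb. That of Actc1 to Acta1 was -1.92, -1.82 and -1.78 in foot and -4.27, -4.16 and -4.12 in forelimb. The largest shift was that of Mybpc1 to Mybpc2, with means of 7.95 ± 0.21 and 3.48 ± 0.08, although both genes were lower in foot. Pairs of subunits and enzymes moved the same way, such as cytochrome oxidase Cox8a to Cox8b (0.77 ± 0.16 and -1.09 ± 0.12) and enolase Eno1 to Eno3 (-2.52 ± 0.06 and -4.25 ± 0.12). Utrn to Dmd, the broadly expressed utrophin and its paralogue dystrophin, differed by 0.11 only. Eno1 shares 72.2% of its 50-base windows with other genes of the annotation, so its reads may have been split among them. The same limit applies to Slc25a5 (46.6%), Pgam1 (41.5%), Tpm3 (33.2%), Myl1 (32.1%) and Ldhb (27%). It also applies to Ckb (21.9%), Myh8 (21.4%), Ldha (19.1%) and Cox6a1 (12.3%). A ratio shows unequal change and does not say which partner moved.

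**Figure D2:**
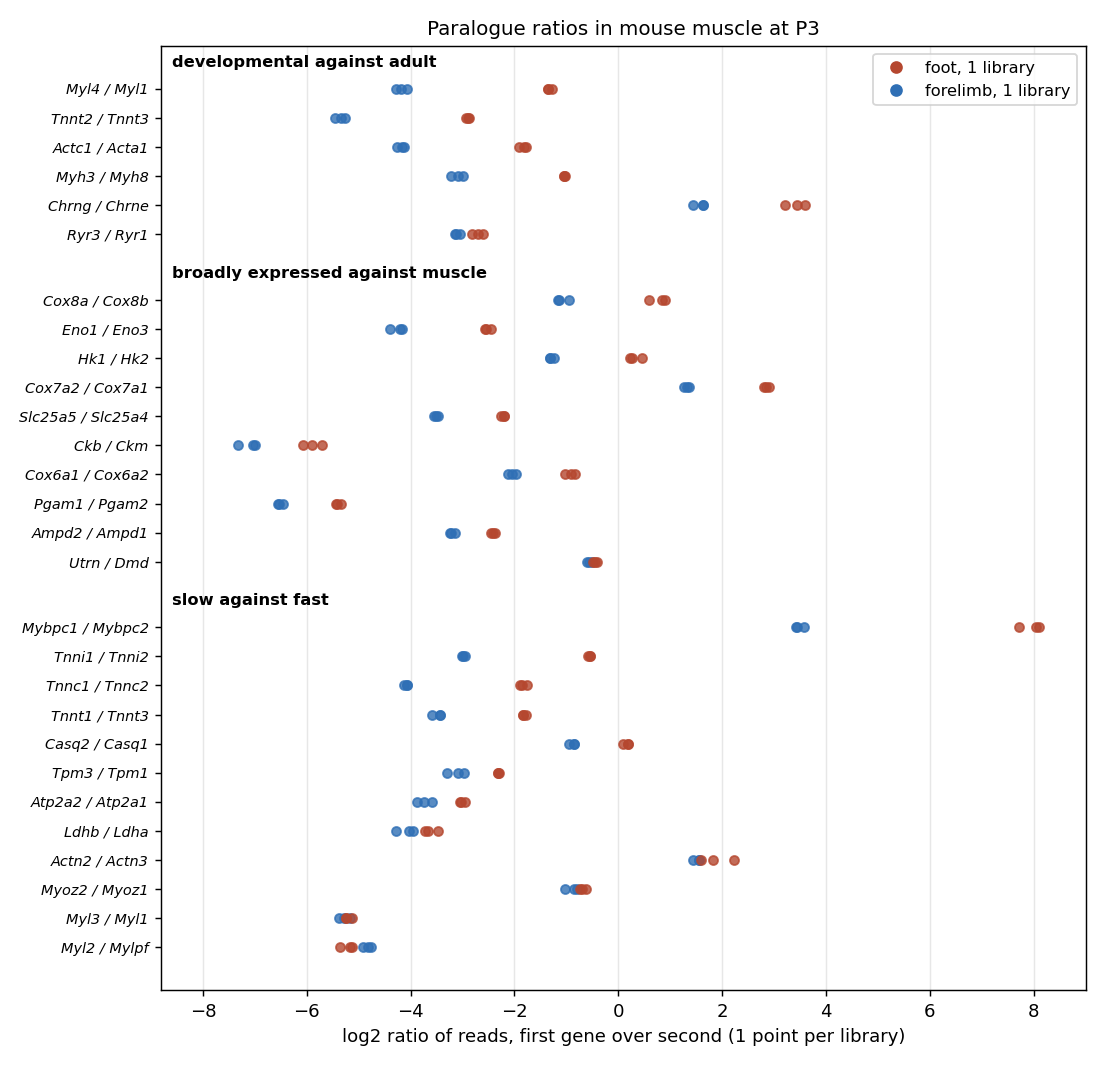
Log2 ratio of reads of the first gene to the second in each of 28 pairs, 1 point per library of mouse muscle at P3, grouped by kind of pair. The foot points lie to the right of the forelimb points in 26 pairs, from a shift of 0.11 for Utrn to Dmd up to 4.47 for Mybpc1 to Mybpc2.

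The myosin heavy chains, the motors of the thick filament, form a cluster on chromosome 11 in the order Myh3 (67078300 to 67102291), Myh2 (67171027 to 67197517), Myh1 (67200052 to 67224575), Myh4 (67238029 to 67260446) and Myh8 (67277124 to 67308634), all on the plus strand of GRCm38, and the slow Myh7 lies on chromosome 14 (54970684 to 54994626). Myh3 is the embryonic, Myh8 the perinatal, Myh2 the fast IIa, Myh1 the fast IIx and Myh4 the fast IIb form. Their coding sequences hold long identical stretches, shown here because the counts of these genes depend on where reads fall relative to them. The longest run that Myh1 and Myh2 share is 268 bases long and spans a splice junction (chr11:67213219-67213597 in Myh1 and chr11:67188318-67188696 in Myh2), while Myh1 and the embryonic Myh3 share at most 94 bases (chr11:67221571-67221664 in Myh1 and chr11:67100856-67100949 in Myh3). The runs are coding strand sequence, 5′ to 3′, from the GENCODE M21 transcripts of GRCm38, and no base is capitalised because every base is shared.
Myh1 and Myh2: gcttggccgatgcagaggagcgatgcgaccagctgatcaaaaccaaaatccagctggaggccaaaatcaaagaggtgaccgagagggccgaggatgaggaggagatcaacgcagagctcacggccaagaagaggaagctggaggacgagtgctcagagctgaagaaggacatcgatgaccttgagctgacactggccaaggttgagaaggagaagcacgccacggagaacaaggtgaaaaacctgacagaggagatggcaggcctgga
Myh1 and Myh3: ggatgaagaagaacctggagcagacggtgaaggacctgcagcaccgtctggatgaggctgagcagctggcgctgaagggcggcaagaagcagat

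Over all 50-base windows of a transcript, the share that also occurs in another gene was 26.7% for Myh1, 26.9% for Myh2, 21.4% for Myh8, 22.6% for Myh7, 18.9% for Myh4 and 4.85% for Myh3, beside a median of 0% over the named genes. How the authors assigned reads that match several genes is not given in the sources used here. The levels of all these heavy chains, Myh8 and Myh7 included, are uncertain to that extent, and that of Myh3 least. The read length is also not given.

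Myh3 was at 5130, 4930 and 4720 CPM in foot and at 1700, 1670 and 1800 CPM in forelimb (1.52 ± 0.11). Myh8 was at 10500, 10100 and 9750 CPM in foot and at 15800, 14200 and 14200 CPM in forelimb (-0.54 ± 0.13), and Myh1 at 564, 517 and 538 CPM and 3430, 3800 and 4000 CPM (-2.79 ± 0.20). Embryonic myosin was therefore higher in foot than in forelimb and perinatal and IIx myosin lower, while within foot Myh8 stood above Myh3. Myh2 was lower by -1.58 ± 0.25. Myh4 was at 388 ± 6.44 CPM in foot against 532 ± 30.9 CPM in forelimb (-0.46 ± 0.17, edgeR adjusted p = 0.0293), and its call was lost without foot library 1 (-0.47), 2 (-0.46) or 3 (-0.44) or forelimb library 1 (-0.41) or 2 (-0.47), as well as in DESeq2 (-0.44).

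Per length of exon, which allows levels to be compared between genes, Myh3 made up 28.6% ± 0.258 of the reads of these 6 heavy chains in foot and 7.34% ± 0.358 in forelimb at P3 (SD, n = 3). Myh8 held 57.3% ± 0.239 and 61.1% ± 2.05, Myh1 3.09% ± 0.11 and 15.7% ± 1.65, and Myh2 4.01% ± 0.345 and 8.71% ± 1.21. Shares of Myh7 (4.80% and 4.81%) and Myh4 (2.24% and 2.25%) differed by less than the spread between libraries. At P0 the share of Myh3 was 63.1% ± 2.24 in foot and 29.1% ± 1.80 in forelimb, and that of Myh8 was 28.8% ± 2.51 and 61.5% ± 1.34. The Myh3 share of foot at P3 thus lay beside that of forelimb at P0, whereas the shares of Myh1 (3.09% against 0.992%) and Myh2 (4.01% against 1.87%) were higher in foot at P3.

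**Figure D3:**
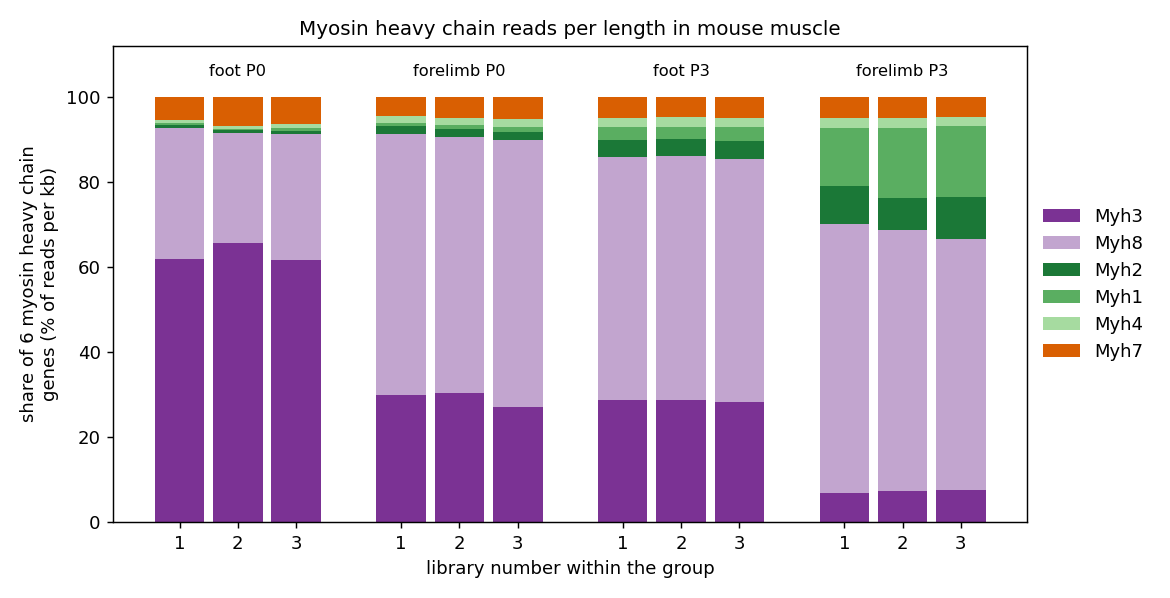
Share of each of 6 myosin heavy chain genes in their summed reads per kb of exon (%), 1 stacked bar per library of mouse foot and forelimb at P0 and P3. Myh3 takes 61.7% to 65.7% of the bar in foot at P0, 28.3% to 28.8% in foot at P3 and 6.94% to 7.63% in forelimb at P3.

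The scaffold of the fibre followed the fast genes. Of 27 Z-disc, M-line and giant sarcomere genes, 20 were lower in foot, 2 higher and 5 not called, with a median of -0.44. Xirp2, an actin-binding protein of the Z-disc, was at 51, 38.7 and 46.2 CPM in foot and at 289, 317 and 351 CPM in forelimb (-2.82 ± 0.25), Ttn, the giant spring titin, was at -0.43 ± 0.10, and Obsl1, a titin-binding cytoskeletal linker, went the other way (0.74 ± 0.09). Excitation-contraction coupling had 17 of 22 genes lower, 0 higher and 5 not called, with a median of -0.62. The calcium release channel Ryr1 was at 510, 472 and 448 CPM in foot and at 1250, 1120 and 1030 CPM in forelimb (-1.25 ± 0.07). Scn4a, the sodium channel of the fibre membrane, was at -1.40 ± 0.08 and Trdn, which anchors calsequestrin to the release channel, at -1.16 ± 0.09. The dystrophin complex, which ties the cytoskeleton to the matrix, had 14 lower, 1 higher and 3 not called of 18. Dmd was at 147, 136 and 137 CPM in foot and at 309, 308 and 304 CPM in forelimb (-1.13 ± 0.06), Nos1, the nitric oxide synthase bound to it, at -1.75 ± 0.12 and the sarcoglycan Sgcd at -1.41 ± 0.09. Dtnb, beta-dystrobrevin of non-muscle cells, was the member that was higher (0.67 ± 0.09).

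RNA levels of energy metabolism genes were mostly lower in foot across all 3 lists that describe them. All 25 genes of fatty acid uptake and oxidation tested were lower, with a median of -1.04 and summed levels of 2550 to 2600 CPM in foot against 5220 to 5570 CPM in forelimb. Acsl1, which activates long-chain fatty acids, was at 100, 99.7 and 99.1 CPM in foot and at 316, 314 and 292 CPM in forelimb (-1.62 ± 0.08), and the dehydrogenase Acadm was at -1.15 ± 0.08. Of 23 genes of glycolysis, glycogen and creatine phosphate, 22 were lower, 0 higher and 1 not called, with a median of -0.86. Ckm, the muscle creatine kinase, was at 2330, 2340 and 2180 CPM in foot and at 4330, 3960 and 4170 CPM in forelimb (-0.86 ± 0.10), and its mitochondrial counterpart Ckmt2 was at 34.6, 35.3 and 31.3 CPM and 212, 237 and 224 CPM (-2.73 ± 0.16). Ckmt2 thus differed more than Ckm. Of 39 nuclear genes of oxidative phosphorylation, 35 were lower, 2 higher and 2 not called, with a median of -0.64, led by the muscle cytochrome oxidase isoform Cox7a1 (-2.25 ± 0.14), with Cox8a, the broadly expressed partner of Cox8b, higher by 0.41 ± 0.10. Over all genes tested 26.6% were lower and 29.1% higher.

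**Figure D4:**
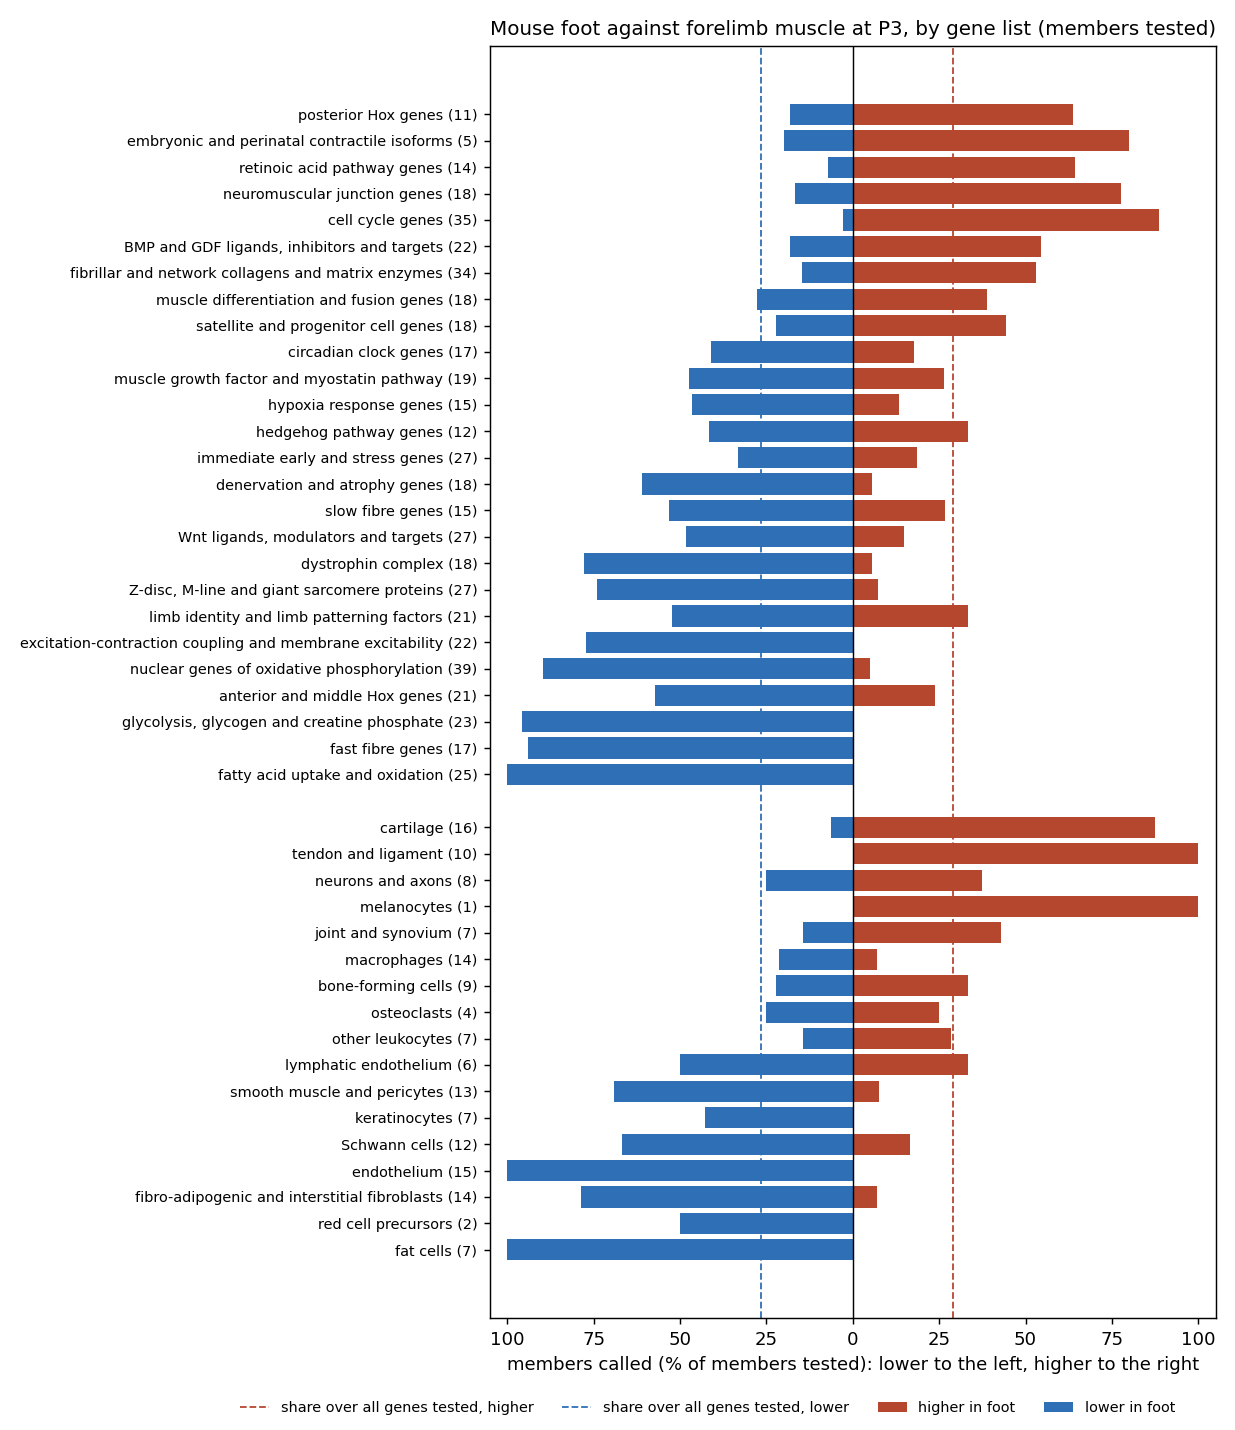
Share of the tested members of each gene list called lower (left) or higher (right) in mouse foot than forelimb at P3 (% of members tested, edgeR adjusted p under 0.05), with dashed lines at the shares over all genes tested, 26.6% and 29.1%. Metabolic, fast fibre and endothelial lists extend to the left, and the tendon, cartilage, cell cycle and neuromuscular junction lists to the right.

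Genes of muscle differentiation and fusion went both ways. The list of 18 counted 7 higher, 5 lower and 6 not called, with a median of 0.12, which is near the shares over all genes. Mymx and Mymk encode myomixer and myomaker, the membrane proteins that fuse myoblasts. Mymx was at 31.1, 31.6 and 25.6 CPM in foot and at 8.67, 6.57 and 7.34 CPM in forelimb (1.97 ± 0.12), and Mymk at 177, 172 and 180 CPM and 90.5, 81.5 and 76.6 CPM (1.09 ± 0.07). Myog, myogenin, which drives terminal differentiation, was at 372, 391 and 352 CPM in foot and at 156, 131 and 136 CPM in forelimb (1.40 ± 0.09). All 3 genes were above the forelimb in every foot library, whereas the 3 genes Mef2a (-0.62 ± 0.05), Mef2c (-0.59 ± 0.08) and Mef2d (-0.59 ± 0.09), which act with myogenic factors on later muscle genes, were lower. Of 18 genes of satellite and progenitor cells, 8 were higher, 4 lower and 6 not called, with a median of 0.03. Pax7, which marks satellite cells, was at 38.2, 34.7 and 40.2 CPM in foot and at 41.4, 40.2 and 39 CPM in forelimb (-0.09 ± 0.10, edgeR adjusted p = 0.465), with overlapping groups. Cdh15, the cadherin of myoblasts, was higher (0.81 ± 0.08) and Calcr, the calcitonin receptor of resting satellite cells, lower (-1.30 ± 0.13). Cell cycle genes had 31 of 35 members higher, 1 lower and 3 not called, with a median of 0.47. Cdk1, the mitotic kinase, was at 78.2 ± 1.35 CPM in foot against 49.1 ± 3.13 CPM in forelimb (0.67 ± 0.07), and Ccnd1, cyclin D1, was the member that was lower (-0.76 ± 0.08).

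Genes of the neuromuscular junction were mostly higher, with 14 higher, 3 lower and 1 not called of 18 and a median of 0.53. Chrng, the fetal gamma subunit of the acetylcholine receptor, was at 181, 185 and 174 CPM in foot and at 70.2, 61.8 and 62.2 CPM in forelimb (1.48 ± 0.12). Chrne, the epsilon subunit that replaces it, was at 19.5, 15.2 and 15.9 CPM and 22.7, 20 and 22.9 CPM, with groups that did not overlap (-0.38 ± 0.12, edgeR adjusted p = 0.0129), and its call was lost without foot library 2 (-0.31), foot library 3 (-0.34) or forelimb library 3 (-0.34). Acetylcholinesterase Ache (0.77 ± 0.08) and Erbb2, a receptor subunit for neuregulins (0.76 ± 0.07), were higher. Utrn, utrophin, which gathers at the junction, was lower by -1.02 ± 0.06. Denervation and atrophy genes had 11 of 18 members lower, 1 higher and 6 not called, with a median of -0.35. Fbxo32, the atrophy ubiquitin ligase atrogin-1, was at 30.9, 33 and 28 CPM in foot and at 38.2, 33.8 and 27.5 CPM in forelimb (-0.11 ± 0.14, edgeR adjusted p = 0.505). Trim63, its partner MuRF1, was lower (-0.36 ± 0.13, edgeR adjusted p = 0.0169), but not called without foot library 1 (-0.33) or forelimb library 1 (-0.30).

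Growth factor genes differed gene by gene, with 5 higher, 9 lower and 5 not called of 19. Mstn, myostatin, the inhibitor of muscle growth, was at 77.2, 72.5 and 77.2 CPM in foot and at 71.1, 72.8 and 75.4 CPM in forelimb (0.05 ± 0.11, edgeR adjusted p = 0.715), and Fgf6, a fibroblast growth factor of muscle, was at 36.3 ± 5.75 and 33 ± 2.31 CPM (0.13 ± 0.16, edgeR adjusted p = 0.488). Hgf, hepatocyte growth factor, was low in both and lower in foot, at 1.19, 0.994 and 0.824 CPM beside 1.61, 1.99 and 1.65 CPM (-0.81 ± 0.24). Igfbp5 (-0.87 ± 0.09), a binding protein of insulin-like growth factors, was lower, while the binding proteins Igfbp3 (0.52 ± 0.09) and Igfbp4 (0.47 ± 0.08) and the fetal RNA-binding protein gene Igf2bp1 (1.26 ± 0.12) were higher.

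Retinoic acid genes had 9 of 14 members higher, 1 lower and 4 not called, with a median of 0.56. Crabp1, a cytosolic carrier of retinoic acid, was at 35.4, 32.6 and 31.2 CPM in foot and at 4.22, 3.28 and 3.73 CPM in forelimb (3.14 ± 0.10), and Crabp2, which delivers it to its receptors, at 14.2, 14.4 and 17 CPM and 2.05, 1.78 and 1.68 CPM (3.05 ± 0.14). The degrading enzyme Cyp26a1 was higher too (2.95 ± 0.32), and the synthesising enzyme Aldh1a2 was lower, at 7.72 ± 0.396 CPM in foot against 26.3 ± 1.18 CPM in forelimb (-1.77 ± 0.13). BMP and GDF genes had 12 of 22 members higher, 4 lower and 6 not called. The ligands Bmp5 (1.14 ± 0.10) and Gdf6 (1.46 ± 0.19) were higher, and the receptor Bmpr1a was lower (-0.51 ± 0.07). The inhibitor Grem1 was at 0.0335 ± 0.0165 CPM in foot against 0.72 ± 0.0798 CPM in forelimb (-4.22 ± 0.43). It passed the read minimum only through the forelimb libraries, which fixes its direction.

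Wnt genes had 13 of 27 members lower, 4 higher and 10 not called, with a median of -0.35. The secreted modulators divided, with Sfrp4 at 5.85, 3.45 and 2.47 CPM in foot against 36.3, 35.6 and 36.4 CPM in forelimb (-3.22 ± 0.19), Sfrp2 at 33.3, 30.6 and 27.1 CPM and 10.8, 8.9 and 8.98 CPM (1.67 ± 0.11), and the inhibitor Wif1 higher by 1.47 ± 0.13. The ligand Wnt16 was lower, at 0.66 ± 0.188 CPM in foot against 9.70 ± 3.79 CPM in forelimb (-3.86 ± 0.32). In the hedgehog pathway, 4 of 12 genes were higher, 5 lower and 3 not called. The ligand Dhh, made by Schwann cells, was lower (-1.91 ± 0.17), and so were Ptch1 (-0.74 ± 0.10) and Hhip (-1.77 ± 0.18), which are known targets of the pathway, while the co-receptor gene Gas1 (1.17 ± 0.25) and the transcription factor gene Gli3 (0.80 ± 0.07) were higher.

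Most tendon and cartilage markers were higher in foot. All 10 tendon and ligament markers tested were higher, with a median of 0.92 and summed levels of 4130 to 4700 CPM in foot against 1990 to 2660 CPM in forelimb. Tnmd, tenomodulin, was at 850, 799 and 858 CPM in foot and at 482, 379 and 530 CPM in forelimb (0.85 ± 0.14), Scx, scleraxis, the transcription factor of tendon precursors, was at 44 ± 1.69 and 27.1 ± 2.06 CPM (0.70 ± 0.13), and Fmod, fibromodulin, at 1130 ± 84.7 and 493 ± 75.1 CPM (1.20 ± 0.11). Of 16 cartilage markers, 14 were higher, 1 lower and 1 not called, with summed levels of 688 to 859 CPM and 256 to 379 CPM. Col2a1, cartilage collagen, was at 229, 171 and 190 CPM in foot and at 91, 56.9 and 78.5 CPM in forelimb (1.38 ± 0.17), so both tissues held cartilage transcripts. Sox9, the factor that defines chondrocytes, was at 3.09 CPM in foot against 3 CPM in forelimb (0.04 ± 0.21, edgeR adjusted p = 0.88). Prg4, lubricin of joint surfaces, was at 14.4, 8.97 and 11.1 CPM and 4.11, 1.99 and 2.24 CPM (2.04 ± 0.22), and Ibsp, a bone matrix protein, had 120 reads in foot and 2 in forelimb. Ibsp passed the read minimum only through the foot libraries, which fixes its direction, and it counts among the higher bone genes. The bone list as a whole had 3 of 9 members higher, 2 lower (Alpl at -0.82 and Smpd3 at -0.75) and 4 not called, with a median of -0.03 that ranged from -0.14 without forelimb library 2 to 0.21 without forelimb library 1. Summed levels of tendon and cartilage markers were thus higher in foot, and their part in the muscle results was not tested.

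Collagens and matrix enzymes had 18 of 34 members higher, 5 lower and 11 not called, with a median of 0.26. Col1a1, the main fibrillar collagen, was at 13400, 10200 and 10100 CPM in foot and at 9340, 6930 and 8020 CPM in forelimb (0.47 ± 0.11), and Col6a1, of the matrix around fibres, at 2950, 2800 and 2670 CPM and 1720, 1510 and 1640 CPM (0.79 ± 0.07). Foot library 1 had the highest Col1a1 level of the 6. Tnc, tenascin C of the muscle to tendon junction, was higher by 1.17 ± 0.13. The basement membrane collagen Col4a1 (-0.53 ± 0.07) and the microfibril gene Fbn1 (-0.89 ± 0.11) were lower, and Fbn2, the fetal fibrillin, was higher (0.71 ± 0.08).

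Markers of vessels, interstitial fibroblasts and fat were lower in foot. All 15 endothelial markers were lower, with a median of -0.98 and summed levels of 705 to 766 CPM in foot against 1450 to 1610 CPM in forelimb. Tek, the angiopoietin receptor, was at 36.8, 36.6 and 35.6 CPM in foot and at 91.9, 102 and 95 CPM in forelimb (-1.40 ± 0.07), and Vegfa, a growth factor for vessels, was at 9.35 ± 0.264 and 22.9 ± 0.431 CPM (-1.29 ± 0.13). Of 13 smooth muscle and pericyte markers 9 were lower, 1 higher and 3 not called, with summed levels of 1520 to 1630 CPM and 1900 to 1990 CPM. Myh11, smooth muscle myosin, was at 12.8, 6.78 and 6.66 CPM and 60.5, 71.6 and 82.8 CPM (-3.05 ± 0.29), and Acta2, smooth muscle actin, which developing skeletal muscle also makes, was higher (0.49 ± 0.10). Of 14 markers of fibro-adipogenic and interstitial fibroblasts 11 were lower, 1 higher and 2 not called, with summed levels of 2300 to 2630 CPM and 3980 to 4020 CPM. Ly6a, a surface antigen of these cells, was at 14.6, 15 and 13.5 CPM and 78.9, 69.6 and 60.3 CPM (-2.28 ± 0.12), while the level of their receptor gene Pdgfra was 173 CPM in foot against 177 CPM in forelimb (-0.03 ± 0.10, edgeR adjusted p = 0.84).

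Of the 7 fat cell markers tested, Adipoq, Plin1, Cidec and Cfd passed the read minimum only through the forelimb libraries, which fixes their direction, and the other 3 (Fabp4, Pparg and Dgat2) were lower too. The 7 had summed levels of 141 to 187 CPM in foot against 319 to 402 CPM in forelimb, most of which came from Fabp4 (150 and 327 CPM), which endothelium also makes. Their defining genes were near 0 in foot. Cfd, adipsin, had 0 foot reads and 134 forelimb reads, at least 40.3-fold lower in foot, Plin1, the coat of fat droplets, had 3 and 416 reads, and Cidec 2 and 136. Adipoq, adiponectin, was at 0.0527, 0.0872 and 0 CPM in foot and at 1.87, 4.88 and 4.71 CPM in forelimb. The forelimb libraries held a low level of fat cell RNA that the foot libraries did not show at this depth, and its part in the fatty acid oxidation list was not tested.

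Markers of Schwann cells were mostly lower in foot, and those of axons and blood cells were mixed. Schwann cells had 8 of 12 markers lower, 2 higher and 2 not called, with summed levels of 220 to 274 CPM in foot against 807 to 844 CPM in forelimb. Mbp, myelin basic protein, was at 15, 26.2 and 28.7 CPM in foot and at 150, 143 and 151 CPM in forelimb (-2.66 ± 0.33). The lineage factor Sox10 was at 22.3 and 19.7 CPM (0.18 ± 0.16, edgeR adjusted p = 0.36), Ngfr, a receptor of immature Schwann cells, was higher (0.59 ± 0.10), and Ret, the receptor for glial-derived growth factors, was at 4.27 ± 0.414 and 33.8 ± 1.99 CPM (-2.98 ± 0.27). The value of Mbp thus lay further from 0 than that of the lineage factor, a contrast between genes that was not itself tested. Axonal markers split, with neurofilament genes Nefl (2.07 ± 0.16) and Nefm (1.66 ± 0.16) higher and the growth-associated genes Stmn2 (-2.76 ± 0.31) and Gap43 (-1.11 ± 0.17) lower. Macrophage markers were called in 4 of 14 cases (1 higher and 3 lower), at 426 to 469 CPM and 472 to 552 CPM in all, which is below the 55.6% over all genes. Cpa3, a mast cell protease, was higher (0.89 ± 0.23), with 66.4, 67.7 and 74.9 CPM in foot against 28.4, 39.4 and 44.8 CPM in forelimb. Of the red cell markers, Slc4a1, the band 3 anion exchanger, was at 1.87, 1.5 and 1.17 CPM in foot and at 1.81, 1.56 and 12 CPM in forelimb. Forelimb library 3 carried its difference (-1.77 ± 0.51), which was -0.16 and not called without that library.

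Genes that respond to handling and to time of day were also read, since foot and forelimb were sampled differently. Of 27 immediate early and stress genes 5 were higher, 9 lower and 13 not called, with a median of -0.28. The median was -0.16 without foot library 2 and -0.09 without forelimb library 1, and 3 genes were higher without foot library 1 or forelimb library 2 or 3. Klf4, a zinc finger factor, was at 24.5, 21.3 and 23 CPM in foot and at 58.3, 47.2 and 39.7 CPM in forelimb (-1.08 ± 0.12), and the nuclear receptor gene Nr4a3 was lower by a log2 fold change of -1.58 ± 0.24, while Gadd45b was higher by 0.87 ± 0.13. Clock genes had 7 of 17 members lower, 3 higher and 7 not called, with the activator Arntl at -0.72 ± 0.14. Only 3 clock genes were lower without foot library 1 or 3 or forelimb library 3, and 4 without each of the other P3 libraries. Of 15 hypoxia genes 7 were lower, 2 higher and 6 not called. Car9, a carbonic anhydrase induced by low oxygen, was at 10, 6.8 and 9.67 CPM in foot and at 1.73, 1.72 and 1.79 CPM in forelimb (2.33 ± 0.31), whereas Vegfa and Pdk1 (-0.43 ± 0.07) of the same list were lower.

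The same 2 tissues had been sampled at birth, which allowed the limb difference at P3 to be tested against that at P0. At P0 8454 of the same 13636 genes were called (62%), 4275 higher in foot (31.4%) and 4179 lower (30.6%). Genes higher at both ages numbered 2487, which is 62.8% of those higher at P3 and 58.2% of those higher at P0. Genes lower at both ages numbered 2475, which is 68.3% and 59.2%. The difference between the ages was called for 4581 genes (33.6%), with a more positive foot to forelimb log2 fold change at P3 for 2472 (18.1%) and a more negative one for 2109 (15.5%). Among the 1346 genes called at both ages in the same direction with a called age difference, the difference was larger at P0 for 953 and larger at P3 for 393. Opposite calls were found for 475 genes, and the age difference was called for all of them. The P0 reads are described as trimmed and the P3 reads as original, so age cannot be told apart from that difference in preparation.

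The medians of fast fibre genes were nearer to 0 at P3 than at P0, and most glycolysis genes had a more positive value. Of the 17 fast fibre genes 9 had a more positive and 1 a more negative value at P3, with list medians of -1.74 at P0 and -1.03 at P3, and the glycolysis list had 15 and 1 of 23. Ckm went from -1.64 ± 0.10 at P0 to -0.86 ± 0.10 at P3 (difference 0.78 ± 0.14, edgeR adjusted p = 0.000143). Its forelimb level was 6990 ± 423 CPM at P0 and 4150 ± 186 CPM at P3, and its foot level 2240 ± 333 and 2280 ± 89.8 CPM. All 5 developmental isoforms were also more positive at P3, with list medians of 0.05 at P0 and 1.38 at P3. Their median thus lay further from 0 at P3, unlike that of the fast fibre genes. Myh8 was still lower in foot at P3 (-0.54), with an age difference of 1.62. Myh3 was at 8510 ± 1450 CPM in foot against 8230 ± 265 CPM in forelimb at P0 (0.05 ± 0.11), so the difference of 1.52 at P3 came with levels of 4920 ± 208 CPM in foot against 1720 ± 65.1 CPM in forelimb. Fatty acid genes did not share the pattern of glycolysis, with 3 more positive and 9 more negative of 25, and a test of 1 list against the other was not made. Fbxo32 was lower in foot at P0 (-0.86 ± 0.15) and not called at P3 (age difference 0.74 ± 0.20, edgeR adjusted p = 0.00643). Hgf went from -2.44 ± 0.27 at P0 to -0.81 ± 0.24 (difference 1.64 ± 0.36, edgeR adjusted p = 0.00127).

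Schwann cell markers had a median near 0 at P0 and below 0 at P3, and the median of matrix genes was higher at P3. The Schwann cell medians were 0.04 at P0 and -0.73 at P3, and 7 of 12 had a more negative value at P3. Mbp was at 16.4 ± 2.94 CPM in foot against 7.98 ± 3.38 CPM in forelimb at P0, and its forelimb level at P3 was 148 ± 4.63 CPM while foot was at 23.3 ± 7.30 CPM (age difference -3.71 ± 0.48, edgeR adjusted p = 3.14e-06). Of the 34 collagen and matrix enzyme genes 18 were more positive and 2 more negative at P3, with medians of -0.06 and 0.26. Col1a2 went from -0.26 ± 0.10 to 0.59 ± 0.10. Among limb identity genes Tbx4 kept its difference (1.83 ± 0.11 at P0 and 1.87 ± 0.11 at P3, age difference 0.03 ± 0.15, edgeR adjusted p = 0.883), and Hoxd13 became more positive (2.49 ± 0.12 and 3.77 ± 0.12, age difference 1.28 ± 0.17). Lgr6, a receptor for R-spondins, was called in opposite directions, with levels of 14.3 ± 1.23 CPM in foot against 2.18 ± 0.29 CPM in forelimb at P0 and of 4.18 ± 0.165 and 10.2 ± 1.18 CPM at P3. Nmrk2 was at 1.68 ± 0.542 and 0.417 ± 0.0786 CPM at P0 and at 0.864 ± 0.116 and 13.8 ± 2.86 CPM at P3.

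**Figure D5:**
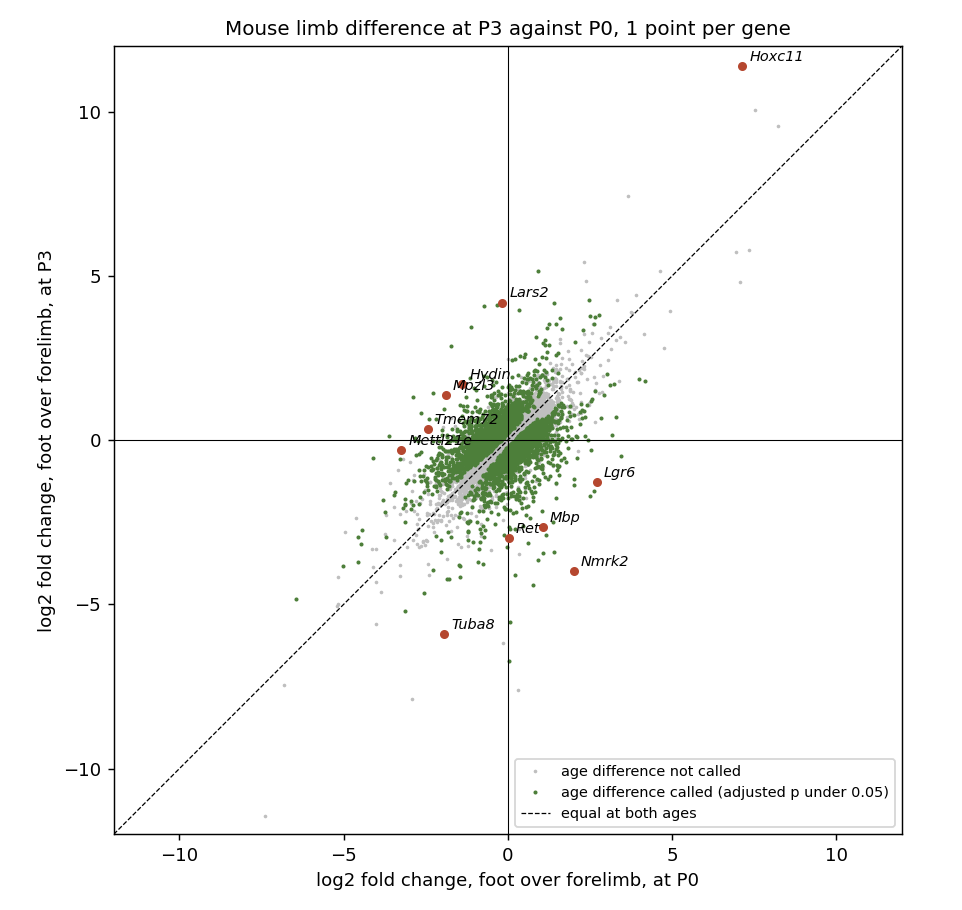
Log2 fold change of foot over forelimb in mouse muscle at P3 (vertical axis) against that at P0 (horizontal axis), 1 point per gene for 13636 genes, with genes whose age difference was called in green. Most points follow the dashed line of equal values, and labelled genes such as Lgr6 (2.70 at P0 and -1.28 at P3) lie off it.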

How the data were processed

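Total RNA of mouse hindfoot and forelimb muscle at P3 was sequenced in 3 libraries each. The deposited files, 1 per library, hold whole-number read counts with no normalization. STAR is named in the submitters' processing notes without a version, and the genome build, annotation, read length, strandedness and handling of multiply matching reads were not given in the sources used here. The files hold 3 count columns, and the last, with 98.5% to 98.8% of the stranded reads at P3, was used. Feature names were paired with GENCODE M21 symbols (GRCm38) for 17529 of 17641 features. A further 112 had none, 61 of them among the genes tested, and 5 symbols fell on more than 1 feature. No mitochondrially encoded gene was among them.

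Counts were fitted with edgeR 4.0.16 in R 4.3.3 (TMM, quasi-likelihood F test) over all 24 libraries with 1 coefficient for each of the 8 groups, 16 residual degrees of freedom and a common coefficient of biological variation of 0.0834. Benjamini-Hochberg adjustment of the p-values ran over the 13636 genes, with a threshold of 0.05, and SE is the log2 fold change divided by the square root of F. Lists and pairs are described by counts and medians only. The members and lists were chosen with earlier results of these data known. Named genes were the 12 largest changes in each direction with 10 CPM or more on average in 1 group and no overlap, up to 4 members of each list with the smallest p and those against its direction, both genes of each pair, the 6 largest age differences each way, the 6 most abundant called genes each way, and a fixed set of muscle and limb genes. Hoxa11, Hoxc9, Hoxd3, Hoxd10, Hoxd11, Sox9, Sox10, Pdgfra, Fabp4, Pparg and Dgat2 were named after their values were seen. Some genes that the rule names are not reported here. The alternatives were other scalings (RLE, upper quartile), other filters on low counts, fewer libraries, a replicate block, a 2-fold minimum, reads of either strand, limma voom (limma 3.58.1), DESeq2 1.42.0 and each library left out in turn. No pair of libraries agreed within sampling noise (chi-square per degree of freedom 6.67 to 13.6 within groups).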

Additional observations from a re-analysis of the deposited data

Results flagged for a closer look

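The foot to forelimb log2 fold change differed between P3 and P0 for the 23 genes listed in this section. The test was edgeR's test of the difference itself (adjusted p under 0.05, 3 libraries a group). These genes come from the largest age differences and from the genes chosen by name. Other named genes had a called age difference too, such as Actc1 (1.46) and Ckmt2 (1.72). The values are P3 minus P0 on the log2 scale. Of the largest positive differences, Lars2 was at 4.36, Mpzl3 at 3.26, Hydin at 3.10, Mettl21e at 2.94 and Tmem72 at 2.78. Mpzl3 was at 12.2 ± 3.21 CPM in foot against 4.75 ± 0.48 CPM in forelimb at P3, and at 10.4 ± 1.12 and 39 ± 11.6 CPM at P0. Mettl21e, a methyltransferase gene of muscle, was at 15.8 ± 2.68 and 19.6 ± 4.88 CPM at P3, and at 5.86 ± 1.51 and 55.8 ± 8.56 CPM at P0. Hoxc11 was at 4.26, a value that depends on the prior count because forelimb had 0 reads at P3, and without forelimb replicate 2 at P0 its difference was 3.48 and not called.

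Large negative differences were those of Nmrk2 at -5.99, Lgr6 at -3.98, Tuba8 at -3.96, Mbp at -3.71 and Ret at -3.01. Tuba8 was at 0.439 ± 0.108 CPM in foot against 26.7 ± 3.33 CPM in forelimb at P3, and at 0.291 ± 0.179 and 1.12 ± 0.264 CPM at P0. Ret was at 4.27 ± 0.414 and 33.8 ± 1.99 CPM at P3, and at 7.25 ± 3.96 and 7.24 ± 0.361 CPM at P0. For both genes the foot level at P3 lay near that at P0 and the forelimb level did not.

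Among the genes of muscle and limb chosen by name, the differences were 1.47 for Myh3, 1.62 for Myh8, 1.68 for Myh4 and 0.96 for Myh2. The Myh2 difference was not called in DESeq2 (0.96) or without foot replicate 2 (0.76), foot replicate 3 (0.89) or forelimb replicate 3 (0.93) at P0, or without foot replicate 1 (0.98), foot replicate 3 (0.92) or forelimb replicate 2 (0.84) at P3. Differences were 0.51 for Mymk, 0.93 for Mymx, 1.05 for Chrng and 0.78 for Ckm. Hoxd13 was at 1.28, Hgf at 1.64, Fbxo32 at 0.74 and Fgf6 at -0.94. Fgf6 was at 72.9 ± 15.4 CPM in foot against 34.7 ± 7.80 CPM in forelimb at P0, and at 36.3 ± 5.75 and 33 ± 2.31 CPM at P3. Reads of the P0 libraries are described in the labels as trimmed and those of the P3 libraries as original, so this step and age cannot be told apart in any of these differences.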

How the results depend on the processing

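With a minimum of 2-fold in the test, 558 genes were called at P3 (199 higher and 359 lower), 580 at P0, and 118 for the age difference (69 and 49). This setting asks for a larger change, so fewer genes pass by its construction. The causes of the other changes were not tested. The other settings gave between 6675 and 9038 calls at P3: 9038 (4500 higher, 4538 lower) from the 6 mouse P3 libraries alone, 8071 with limma voom, 7767 with DESeq2, 7716 (4294 and 3422) with upper quartile scaling and 7161 with at least 50 reads. Leaving out each replicate in turn gave 6675 to 7893 calls at P3 and 3896 to 4987 for the age difference. With a replicate block, 7516 genes were called at P3 (3910 and 3606) and 4491 for the age difference. Deviations of equally numbered foot and forelimb libraries from their group means correlated at -0.011, 0.039 and -0.002 at P3. At P0 they correlated at 0.148, 0.083 and 0.055, beside -0.107 to 0.038 for unlike numbers. Deviations from means of 3 libraries cannot settle whether equal numbers share an animal.

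The median of the other leukocytes, -0.33, turned to 0.18 with at least 50 reads and, leaving out each replicate in turn, ranged from -0.41 to 0.35, with 0.35 without forelimb replicate 3 at P3. Of the values of named genes at P3, 6707 kept their side of the threshold, with direction compared only for genes called in the main fit. A further 296 lost their call, those under the 2-fold minimum included, and 14 gained it. The paralogue pairs carry no test, and their 84 values from reads of either strand and from the lowest and highest on leaving out 1 library kept their direction. Leaving out 1 library also moved small counts of list members at P3. Higher Z-disc genes went from 2 to 1 without foot library 1 or 2 or forelimb library 2 or 3, higher oxidative phosphorylation genes from 2 to 1 without foot library 2 or forelimb library 3, and higher hypoxia genes from 2 to 1 without foot or forelimb library 2. Lower junction genes went from 3 to 1 without foot library 3, lower retinoic acid genes from 1 to 2 without foot library 2, lower matrix genes from 5 to 3 without foot library 3 or forelimb library 1, and lower bone genes from 2 to 1 without foot library 1 or forelimb library 2. Higher atrophy and higher macrophage genes went from 1 to 2 without forelimb library 3, macrophage genes also without foot library 3 or foot library 1 of P0, and atrophy genes also without foot library 2 or 3 or forelimb library 1 or 2 of P0. Depth limits Hox, fat and bone genes near 0 reads, whose folds are bounds or are given as reads.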

Other observations

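Single genes of tendon, cartilage, bone and the fast sarcomere had the following values at P3, with log2 fold change ± SE from edgeR in brackets. Egfl6, a secreted protein with epidermal growth factor repeats, was at 108, 96.3 and 89.1 CPM in foot, and at 37.4, 29.5 and 33.4 CPM in forelimb (1.55 ± 0.09). Cilp2, a matrix protein of cartilage and tendon, was at 66.6, 66.3 and 67.8 CPM and 26.6, 20.3 and 18.8 CPM (1.61 ± 0.15), beside 0.10 ± 0.15 at P0. Phex, an endopeptidase known from bone, was at 20.5, 19.8 and 19.6 CPM and 5.9, 5.9 and 8.6 CPM (1.55 ± 0.15), while the bone list as a whole had 3 of 9 members higher, 2 lower and 4 not called. Chad, chondroadherin, was higher by 1.85 ± 0.15 at P3 and by 3.98 ± 0.18 at P0. Myoz3, a Z-disc protein of fast fibres, was at 12.7, 11.2 and 13.2 CPM in foot, and at 104, 96.5 and 87.9 CPM in forelimb (-2.96 ± 0.15), beside -0.77 ± 0.11 for Myoz1 and -0.56 ± 0.10 for Myoz2.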
